A study of Mus musculus with 4 samples.

Results

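Corticotropin-releasing hormone (CRH), oxytocin and vasopressin signal through a small set of peptides and receptors, and 8 genes of these systems were followed here in brain septal tissue of restraint-stressed mice. The genes were chosen by name: the peptide genes Crh, Oxt and Avp, the CRH-binding protein gene Crhbp, and the receptor genes Crhr1, Crhr2, Oxtr and Avpr1a. All 8 were among the 15409 gene rows of the deposited files and all 8 were among the 13912 genes tested. The tissue came from wild-type (WT) mice and from TCRb-/- mice, in which the T cell receptor beta chain is missing. Such mice have no alpha-beta T cells but can still make gamma-delta T cells. Mice of both genotypes were restrained in plastic cones for 30 min on each of 3 days, and tissue was taken 1.5 h after the final restraint, so no unstressed animals were compared. Each genotype had 2 libraries, each a pool of tissue from 4 to 5 mice, with 1 library of each genotype in experiment 1 and 1 in experiment 2. Replicate numbers below are the experiment numbers. The strain, sex and age of the mice were not given in the sources used here.

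CRH is a peptide made in neurons of the hypothalamus, the amygdala and other forebrain sites, and it starts the hormonal stress response. It acts through CRH receptor 1 and CRH receptor 2, which raise cyclic AMP through the G protein Gs, while CRH-binding protein holds the peptide away from its receptors. The urocortins are related peptides, and urocortin 3 is selective for CRH receptor 2, a receptor known for its high level in the lateral septum. Oxytocin and vasopressin are closely related peptides made mainly in the paraventricular and supraoptic nuclei of the hypothalamus, and they act in the septum on social memory, aggression and anxiety through the oxytocin receptor and vasopressin receptor 1A, both coupled to the G protein Gq and phospholipase C.

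The libraries held between 19988137 and 26210790 reads, and levels are given in CPM, the reads scaled to a common library total. A count of 0 allows up to 3 reads, or between 0.114 and 0.150 CPM. Trbc2, a constant segment of the deleted receptor chain, had 0 reads in both TCRb-/- libraries and 169 and 86 reads in the WT libraries. All 12 lateral septum markers and all 6 markers of medial septum cholinergic neurons were listed, with summed levels of 1576 to 1840 CPM and 95.1 to 123 CPM per library. The first principal component held 76.7% of the variance and separated the experiments. Markers of neighbouring regions differed between the experiments: the 15 striatal markers summed to 5150 and 4623 CPM in TCRb-/- and WT of experiment 1 and to 1130 and 2779 CPM in experiment 2, and the 8 markers of cortex and hippocampus to 239 and 301 CPM against 70.3 and 67.3 CPM. For 2 libraries against 2 the smallest p of an exact permutation test is 0.333, so the tests rest on limma fitted across all genes. With genotype as the only term, its p-values rest on a spread that includes the difference between experiments. With experiment as the only term, that spread includes the genotype difference. No experiment had more than 1 pool of a genotype, so the spread between like pools was not measured. In bulk tissue, fewer cells of a type and less RNA per cell cannot be told apart.

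The oxytocin and vasopressin genes are sister genes. In GRCm38 (GENCODE M21), Oxt (ENSMUSG00000027301) is a protein-coding gene on chromosome 2 from 130576173 to 130577054 on the plus strand. Avp (ENSMUSG00000037727), also protein-coding, lies from 130580620 to 130582554 on the minus strand, so that 3565 bases separate the genes. The coding stretches of the 9-codon peptides with the 3 following codons, which code for the amidation and cleavage signal, are shown because they set the peptides apart. Capitals mark the bases that differ.
Oxt: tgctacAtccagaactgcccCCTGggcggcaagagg
Avp: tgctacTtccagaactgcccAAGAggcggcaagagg
The sequences were identical at 31 of 36 bases and differed by A7T, C21A, C22A, T23G and G24A, with the Oxt base first and positions counted from 1 at the first base shown. They begin at codon 20 of 125 in the Oxt transcript and at codon 24 of 168 in the Avp transcript. The part of each gene that codes for neurophysin, the carrier protein of the peptide, is more alike still. The longest run of bases common to both transcripts covers bases 156 to 282 of the 537 bases of Oxt and bases 144 to 270 of the 577 bases of Avp.
Shared run: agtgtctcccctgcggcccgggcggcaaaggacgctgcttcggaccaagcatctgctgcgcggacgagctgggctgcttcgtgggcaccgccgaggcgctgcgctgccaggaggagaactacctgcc
This run of 127 bases lies in the coding part of both. Of all 50-base windows, 16.0% in Oxt and 14.8% in Avp occurred in the other gene without a mismatch. How reads that fit both genes were counted was not given in the sources used here, so the levels of Oxt and Avp are uncertain to that extent, and their sum is given below as well. By contrast, the longest run common to Crhr1 and Crhr2 was 24 bases, and no 50-base window was shared.

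The upstream sequences of Oxt and Avp are shown because these genes moved together in the libraries. RefSeq windows (GRCm38.p6) from 250 bases before to 50 bases after the start were found for 7 of the 8 genes, all but Crh. The 250 bases before the start are printed for both genes on the gene's strand. Capitals mark GGTCA on either strand, a core motif of nuclear receptor sites, and the E-box CACGTG, a site of clock and other basic helix-loop-helix proteins.
Oxt, chr2:130575919-130576168 (+): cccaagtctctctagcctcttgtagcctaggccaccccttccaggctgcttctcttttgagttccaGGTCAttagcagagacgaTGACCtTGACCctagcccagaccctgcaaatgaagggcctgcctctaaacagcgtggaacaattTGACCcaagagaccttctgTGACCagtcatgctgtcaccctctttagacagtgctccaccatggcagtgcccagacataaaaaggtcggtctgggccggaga
Avp, chr2:130582589-130582838 (-): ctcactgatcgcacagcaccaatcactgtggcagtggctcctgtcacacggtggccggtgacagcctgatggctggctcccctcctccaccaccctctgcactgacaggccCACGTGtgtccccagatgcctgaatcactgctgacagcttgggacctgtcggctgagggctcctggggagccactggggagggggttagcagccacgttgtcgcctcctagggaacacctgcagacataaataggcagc
The Oxt window held 5 copies of GGTCA, beginning 184, 166, 160, 102 and 83 bases before the start. GGTCA was also present in the Oxtr window, with 2 copies, and in the Crhbp window, with 1. Of 32851 mouse promoter windows of the same length, 40.5% held the motif at least once and 0.0944% held at least 5 copies. CACGTG occurred once in the Avp window, 139 bases before the start, and once in the Oxtr window, 43 bases before it, against 7.15% of all windows. TGACG, the core of the cyclic AMP response element, was present in the windows of Crhbp and Avpr1a, against 20.8% of all windows. The full element TGACGTCA (1.79% of all windows), which contains TGACG, and TGTTCT (19.0%), a core of glucocorticoid receptor sites, had no match in the 7 windows. None of the matches in the Oxt and Avp windows overlapped a match of another motif. These matches are letters in a window and not measured binding.

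Oxt and Avp, the peptide genes of the hypothalamic magnocellular neurons, had the widest ranges of the 8 genes, and both were far higher in experiment 2 than in experiment 1 in each genotype. Oxt had 405 and 2574 reads in TCRb-/- replicates 1 and 2 and 557 and 2144 reads in WT replicates 1 and 2. These correspond to 16.5 CPM (exact 95% interval 14.9 to 18.2), 129 CPM (124 to 134), 21.3 CPM (19.5 to 23.1) and 95.9 CPM (91.9 to 100.04). Both experiment 2 libraries lay far above both experiment 1 libraries, and the genotypes overlapped. Oxt was 7.82-fold (95% counting interval 7.04 to 8.70) higher in experiment 2 in TCRb-/- and 4.51-fold (4.11 to 4.96) higher in WT. The experiment means were 18.9 ± 3.38 and 112 ± 23.3 CPM (SD, n = 2 each). On the log2(CPM + 1) scale the fitted difference was 2.51 (SE 0.16, adjusted p 0.00156 in limma).

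Avp followed the same order of libraries with a wider range. It had 141 and 2073 reads in TCRb-/- replicates 1 and 2 and 241 and 1292 reads in the WT replicates, or 5.74, 104, 9.19 and 57.8 CPM. TCRb-/- replicate 1 was lowest and TCRb-/- replicate 2 highest for both peptides, with the WT libraries between them. Between experiments Avp differed 18.1-fold (15.2 to 21.6) in TCRb-/- and 6.28-fold (5.47 to 7.24) in WT. Its fitted difference of 3.24 (SE 0.28, adjusted p 0.00255 in limma) was the largest rise among the 13912 genes tested, and that of Oxt was the next. Avp kept that place under all 12 alternative settings and with each library left out in turn, and Oxt was second except without TCRb-/- replicate 1, when it was in place 3.

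**Figure D1:**
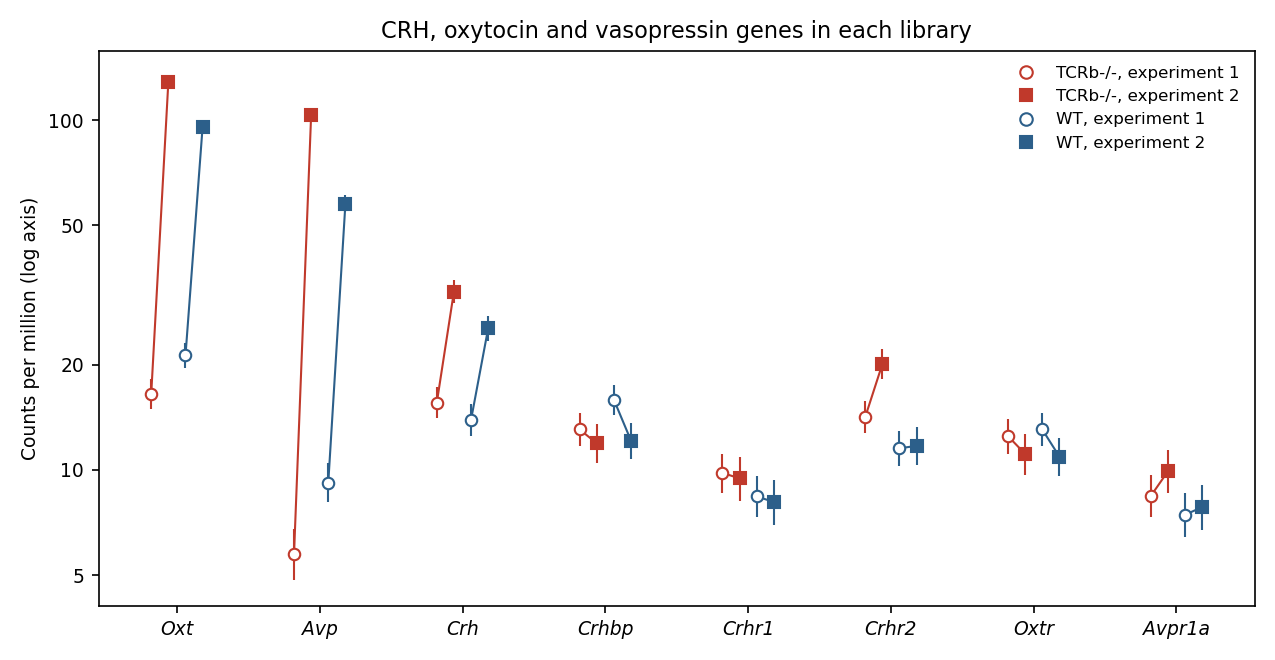
CPM of the 8 genes in each of the 4 libraries on a log axis, with open circles for experiment 1, filled squares for experiment 2, lines joining the libraries of a genotype and bars for exact 95% counting intervals. Oxt and Avp climb steeply from experiment 1 to experiment 2 in both genotypes, Crh climbs less, and the receptor genes and Crhbp stay between 7.44 and 20.1 CPM.

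The relative amount of the peptide transcripts moved too. Per kilobase of exon, the Avp level was 0.324 and 0.750 of the Oxt level in TCRb-/- replicates 1 and 2 and 0.403 and 0.561 in the WT replicates, so Oxt was the more abundant in each of the 4 libraries. The ratio was higher in both experiment 2 libraries than in either experiment 1 library. The sum over both genes does not depend on how reads common to them were divided, but any such reads left uncounted are missing from it. It was 22.2 and 232 CPM in TCRb-/- and 30.4 and 154 CPM in WT. The sum was 10.5-fold higher in experiment 2 in TCRb-/- and 5.05-fold higher in WT.

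Markers of the hypothalamus, choroid plexus and thalamus were higher in experiment 2 as well. Of 15 hypothalamic markers other than the 8 genes, 9 were listed, and these summed to 63.7 and 169 CPM in TCRb-/- and 74.1 and 158 CPM in WT. Among the 6 tested, 4 rose, including Trh (thyrotropin-releasing hormone, by 1.47, adjusted p 0.00240 in limma) and Gal (galanin, by 1.38, adjusted p 0.00116). With the replicate block 3 were called, since Ghrh had an adjusted p of 0.0374 without it and 0.0536 with it. The tested markers Pomc and Gnrh1 did not pass (differences 0.27 and 0.28). Sim1 and Otp, transcription factors needed for Oxt, Avp and Crh neurons, were below the level tested. They had 4, 21, 3 and 18 reads and 8, 37, 18 and 24 reads in TCRb-/- replicates 1 and 2 and WT replicates 1 and 2. Agrp, also below that level, had 15, 6, 12 and 10 reads in the same order and so did not rise. The markers Hcrt, Pmch, Kiss1, Nr5a1, Hmx2 and Hmx3 were not analysed here. The 16 choroid plexus markers summed to 2194 and 7007 CPM in TCRb-/- and 1345 and 4269 CPM in WT (15 rose), and the 7 thalamic markers to 303 and 562 CPM and to 291 and 374 CPM (4 rose). Of the 12 lateral septum markers 2 rose, Zic1 by 0.38 (adjusted p 0.0316 in limma) and Zic4 by 0.41 (0.0294), and 10 did not pass. With the replicate block 4 were called, Zic1, Zic2, Zic4 and Zic5. Most of the summed level of this list comes from Gad1 and Gad2, at 501 to 830 CPM per library, neither of them called. All 15 striatal markers were lowest in TCRb-/- replicate 2, the library with the most Oxt and Avp. The part of tissue make-up in the differences of Oxt and Avp was not tested.

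**Figure D2:**
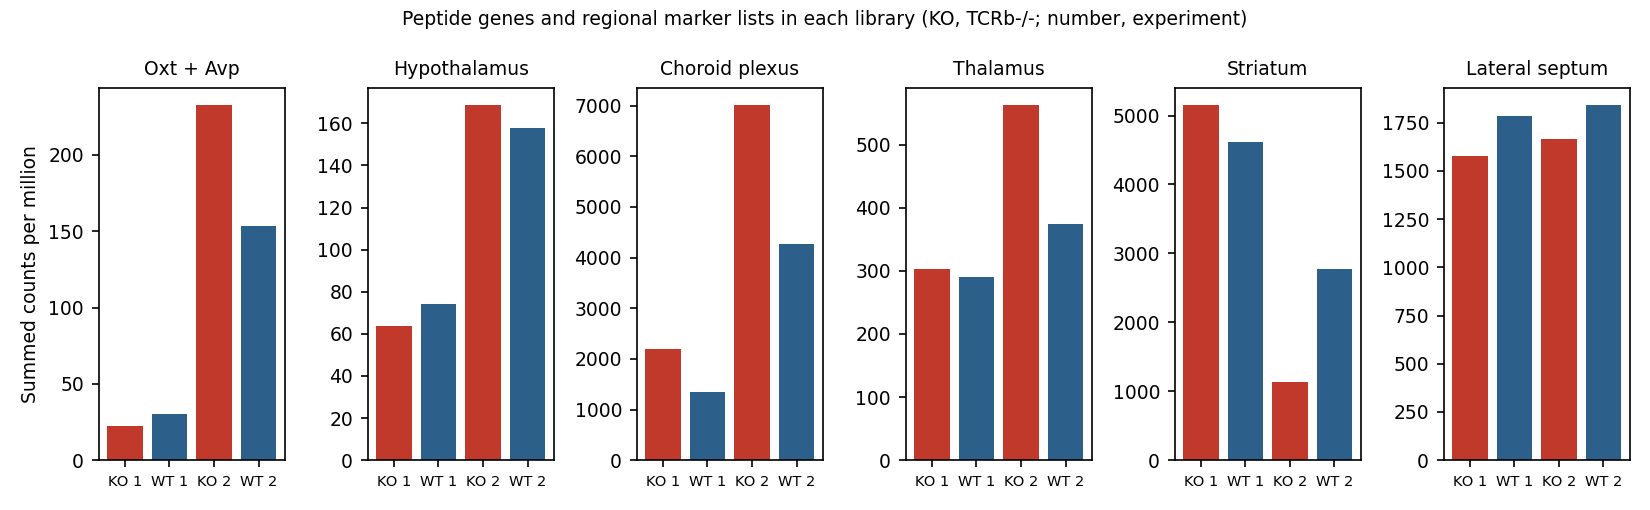
Summed CPM per library of Oxt plus Avp and of 5 marker lists, each panel with its own axis from 0 (red, TCRb-/-; blue, WT; 1 and 2, the experiment). The peptide sum, the hypothalamic, choroid plexus and thalamic lists are higher in both experiment 2 libraries, and the striatal list is lower. The lateral septum list, most of it Gad1 and Gad2, stays between 1576 and 1840 CPM.

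Transcript length also went with the difference between experiments. Over the 13544 tested genes with an annotated length, Spearman's rho between length and that difference was -0.40, a description across genes of the same 4 libraries. The 327 genes with merged exons under 1000 bases, which include Oxt and Avp, had a median difference of 0.23, and the 5868 genes over 5000 bases one of -0.15. The differences of Oxt and Avp were 2.51 and 3.24. A median does not give the spread of short genes, and the part of length in the differences of Oxt and Avp was not tested.

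Genotype differences of Oxt and Avp pointed in opposite directions in the experiments. In experiment 1 the TCRb-/- level was 0.775 of the WT level for Oxt (95% counting interval 0.680 to 0.883) and 0.624 for Avp (0.503 to 0.771). In experiment 2 it was 1.34-fold (1.27 to 1.42) and 1.79-fold (1.67 to 1.93) the WT level. Each of these 4 ratios lies outside counting error, but each rests on 1 library per genotype, so the change of direction was not tested. The genotype means were 72.6 ± 79.4 CPM in TCRb-/- against 58.6 ± 52.8 CPM in WT for Oxt and 54.7 ± 69.3 against 33.5 ± 34.4 CPM for Avp (SD, n = 2 each). The pooled differences were 0.04 (SE 1.10) and 0.12 (SE 1.44), far smaller than the spread between replicates, with an adjusted p of 1.00 in limma for both. Without TCRb-/- replicate 2 these differences became -1.41 and -1.86, without WT replicate 1 they became -1.02 and -1.15, and they stayed above 0 when either other library was left out. Leaving out 1 library of a pair unbalances the experiments, so by construction such genotype values, here and below, carry part of the difference between experiments. It unbalances the genotypes in the same way, so values by experiment with 1 library left out carry part of the genotype difference.

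Crh encodes the peptide that starts the hormonal stress response, and it lies on chromosome 3 from 19693401 to 19695396 on the minus strand. It had 383 and 647 reads in TCRb-/- replicates 1 and 2 and 365 and 569 reads in WT, or 15.6, 32.4, 13.9 and 25.4 CPM. Both experiment 2 libraries were above both experiment 1 libraries, and TCRb-/- was above WT in each experiment, while the genotypes as a whole overlapped. Crh was 2.08-fold (1.83 to 2.36) higher in experiment 2 in TCRb-/- and 1.83-fold (1.60 to 2.09) higher in WT. The fitted difference was 0.92 (SE 0.14, adjusted p 0.00669 in limma), place 91 among the rises of all genes tested, and the place ran from 41 to 162 over the alternative settings. By genotype the CPM ratio was 1.12 (0.967 to 1.29) in experiment 1, within counting error, and 1.27 (1.13 to 1.43) in experiment 2. The pooled genotype difference of 0.24 (SE 0.42, adjusted p 1.00 in limma) was smaller than the spread within genotypes, which includes the difference between experiments. Within experiments the difference was 0.15 and 0.34, and with the replicate block its SE was 0.11 (unadjusted p 0.0565, adjusted p 0.848 in limma). It was -0.26 without TCRb-/- replicate 2 and -0.17 without WT replicate 1, where the experiments are unbalanced. The hypothalamic marker sums above were higher in the same libraries, and their part in its difference was not tested.

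Of the related ligands and receptors, Ucn, Ucn2, Avpr1b and Avpr2 were not analysed here. Ucn3, the urocortin that prefers CRH receptor 2, had 59 and 137 reads in TCRb-/- and 75 and 131 reads in WT, or 2.40, 6.85, 2.86 and 5.86 CPM. It was higher in both experiment 2 libraries, and the genotypes overlapped. Its difference between experiments was 1.02 (SE 0.17, adjusted p 0.00837 in limma) and its difference between genotypes 0.01 (adjusted p 1.00). Per kilobase Ucn3 stood at 0.138, 0.189, 0.184 and 0.206 of the Crh level in TCRb-/- replicates 1 and 2 and WT replicates 1 and 2.

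Crhbp, on chromosome 13 from 95431371 to 95444924 on the minus strand, did not share the rise of the peptides. It had 321 and 238 reads in TCRb-/- and 416 and 271 reads in WT, or 13.1, 11.9, 15.9 and 12.1 CPM. Both experiment 2 libraries were slightly below both experiment 1 libraries, and WT replicate 1 was the highest. The difference between experiments was -0.24 (SE 0.13, adjusted p 0.216 in limma) and that between genotypes -0.14 (SE 0.20, adjusted p 1.00), which turned to 0.04 without WT replicate 1. The Crhbp level per kilobase was 0.615 of the Crh level in TCRb-/- replicate 1 and 0.836 in WT replicate 1, but 0.270 and 0.349 in the experiment 2 libraries. Thus the binding protein transcript was below that of its ligand in each of the 4 libraries, by more in both experiment 2 libraries.

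None of the 4 receptor genes passed the threshold between experiments, with fitted differences from -0.20 for Oxtr to 0.25 for Crhr2. Crhr1 encodes the main CRH receptor of the pituitary and forebrain and lies on chromosome 11 from 104132855 to 104175523. It had 241 and 189 reads in TCRb-/- and 220 and 181 reads in WT, or 9.80, 9.46, 8.39 and 8.10 CPM. Both TCRb-/- libraries were above both WT libraries, and the experiments overlapped. The TCRb-/- to WT ratio was 1.17 in each experiment, with counting intervals of 0.969 to 1.41 and 0.948 to 1.44 that include 1. The genotype difference was 0.20 (SE 0.17, adjusted p 1.00 in limma). The difference between experiments was -0.05 (SE 0.15, adjusted p 0.841 in limma), and it was -0.05 within each genotype. Its sign turned with quantile normalization. Without TCRb-/- replicate 1 or WT replicate 2, where the genotypes are unbalanced, it was 0.05 in both cases.

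Crhr2, the receptor for urocortins that marks the lateral septum, is a protein-coding gene on chromosome 6 from 55090049 to 55133016 on the minus strand, 13.5 Mb from Trbc2. It had 348 and 401 reads in TCRb-/- replicates 1 and 2 and 302 and 262 reads in WT, or 14.2 CPM (exact 95% interval 12.7 to 15.7), 20.1 CPM (18.1 to 22.1), 11.5 CPM (10.3 to 12.9) and 11.7 CPM (10.3 to 13.2). The WT libraries were nearly equal, both TCRb-/- libraries lay above them, and TCRb-/- replicate 2 stood highest. The ratio was 1.23 (1.05 to 1.44) in experiment 1 and 1.71 (1.46 to 2.01) in experiment 2, both outside counting error; whether the ratios differ between experiments was not tested, with 1 library on each side. The genotype means were 17.1 ± 4.18 against 11.6 ± 0.139 CPM (SD, n = 2 each).

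The Crhr2 genotype difference of 0.50 (SE 0.21) was the largest of the 8 genes. Its adjusted p was 1.00 in limma and 0.848 with the experiment as a replicate block, so neither fit called it. Unadjusted, p was 0.0606 and 0.00818. Leaving out single libraries moved the difference between 0.26 (without TCRb-/- replicate 2) and 0.74 (without TCRb-/- replicate 1). By experiment Crhr2 differed by 0.25 (SE 0.23, adjusted p 0.453 in limma). The difference came from the TCRb-/- pair, at 0.47 (ratio 1.42, 1.22 to 1.64), against 0.02 in WT (ratio 1.02, 0.859 to 1.20). It was -0.12 without TCRb-/- replicate 2 and 0.61 without WT replicate 2, values that carry part of the genotype difference. Choroid plexus markers were also higher in TCRb-/- in both experiments, with a median difference of 0.51 in experiment 1 and 0.55 in experiment 2. Among them Ttr was called by genotype with the replicate block (0.85, adjusted p 0.0323 in limma) but not without it. The lateral septum markers had median differences of 0.22 and 0.01. The part of these markers in the difference of Crhr2 was not tested.

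Oxtr encodes the oxytocin receptor and also lies on chromosome 6, from 112473683 to 112489943 on the minus strand, 70.9 Mb from Trbc2. It had 307 and 222 reads in TCRb-/- and 342 and 244 reads in WT, or 12.5, 11.1, 13.0 and 10.9 CPM. The genotypes overlapped, and both experiment 2 libraries were slightly below both experiment 1 libraries. The TCRb-/- to WT ratio was 0.957 (0.818 to 1.12) in experiment 1 and 1.02 (0.845 to 1.23) in experiment 2. Differences were -0.02 (SE 0.18, adjusted p 1.00 in limma) by genotype and -0.20 (SE 0.12, adjusted p 0.262) by experiment. The sign by genotype turned without TCRb-/- replicate 2 (0.06) and without WT replicate 1 (0.10). Its ligand gene Oxt differed 5.69-fold between experiments on the fitted scale, while the difference of Oxtr had the opposite sign and did not pass the threshold.

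Avpr1a encodes the main vasopressin receptor of the forebrain and lies on chromosome 10 from 122448499 to 122453452 on the plus strand. The antisense gene Gm48877 overlaps it on the other strand without a shared exon. It had 207 and 198 reads in TCRb-/- and 195 and 175 reads in WT, or 8.42, 9.91, 7.44 and 7.83 CPM. Both TCRb-/- libraries were above both WT libraries by a narrow margin, and the experiments overlapped. The ratio was 1.13 (0.926 to 1.38) in experiment 1 and 1.27 (1.03 to 1.56) in experiment 2. Differences were 0.23 (SE 0.18, adjusted p 1.00 in limma) by genotype and 0.14 (SE 0.16, adjusted p 0.553) by experiment. The difference between experiments was 0.21 within TCRb-/- and 0.06 within WT. Without TCRb-/- replicate 2, where the genotypes are unbalanced, it was -0.01.

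**Figure D3:**
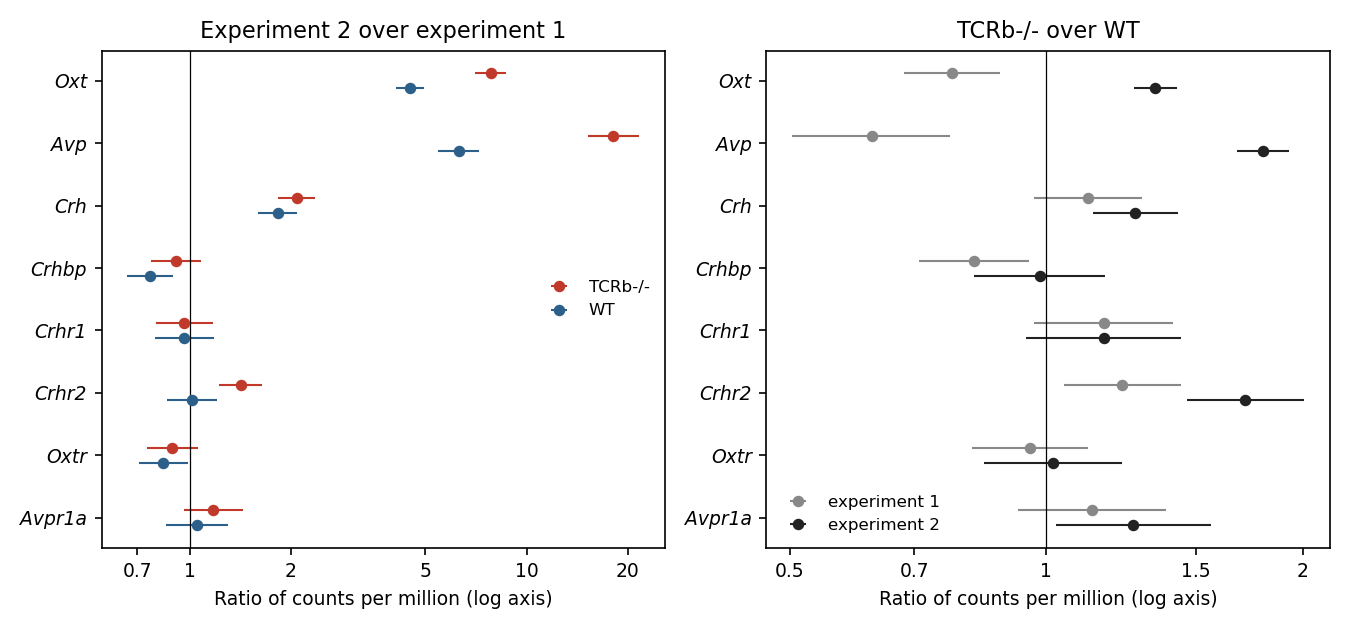
Ratios of CPM for the 8 genes on log axes with 95% counting intervals, experiment 2 over experiment 1 within each genotype on the left and TCRb-/- over WT within each experiment on the right. On the left the peptide genes lie far right of 1, up to 18.1 for Avp, while on the right Oxt and Avp fall on opposite sides of 1 in the experiments and Crhr2 lies above 1 in both.

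By genotype, 0 of the 8 genes passed the threshold of 0.05 on the adjusted p in limma, with or without the replicate block. Trbc2, with 0 reads in both TCRb-/- libraries, was itself not called without the block (difference -2.59). It was called with the block (adjusted p 0.0323 in limma). A lack of calls without the block therefore does not show equal levels. Over all genes 0% passed without the block (0.309%, or 43 genes, before adjustment) and 0.0144% with it (5.64% before adjustment). Before adjustment, 0 of the 8 were under 0.05 without the block, and 1, Crhr2, was with it. The TCRb-/- libraries both lay above the WT libraries for 3 of 8 genes (Crhr1, Crhr2 and Avpr1a), against 9.76% of all genes, and no gene of the 8 had them both below. Of all genes, 17.8% did not overlap in either direction. The direction was the same in both experiments for 5 of 8 genes, against 51.6% of all genes, and the median genotype difference of the 8 was 0.16 against 0.00 over all genes.

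By experiment, 3 of the 8 genes rose and 0 fell in limma, a share of 37.5% beside 23.7% of all genes called in either direction (8.95% higher and 14.7% lower in experiment 2). The 3 were the peptide genes Oxt, Avp and Crh, and the 4 receptor genes and Crhbp did not pass. With quantile normalization the calls over all genes split into 1634 higher and 1593 lower, against 1245 and 2047 in the scaling used here, and Oxt, Avp and Crh remained called higher. The experiments did not overlap for 5 of 8 genes, against 67.3% of all genes, so this count is no larger than the background. Experiment 2 was above for Oxt, Avp and Crh (30.1% of all genes) and below for Crhbp and Oxtr. Both comparisons use the same 4 libraries.

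**Figure D4:**
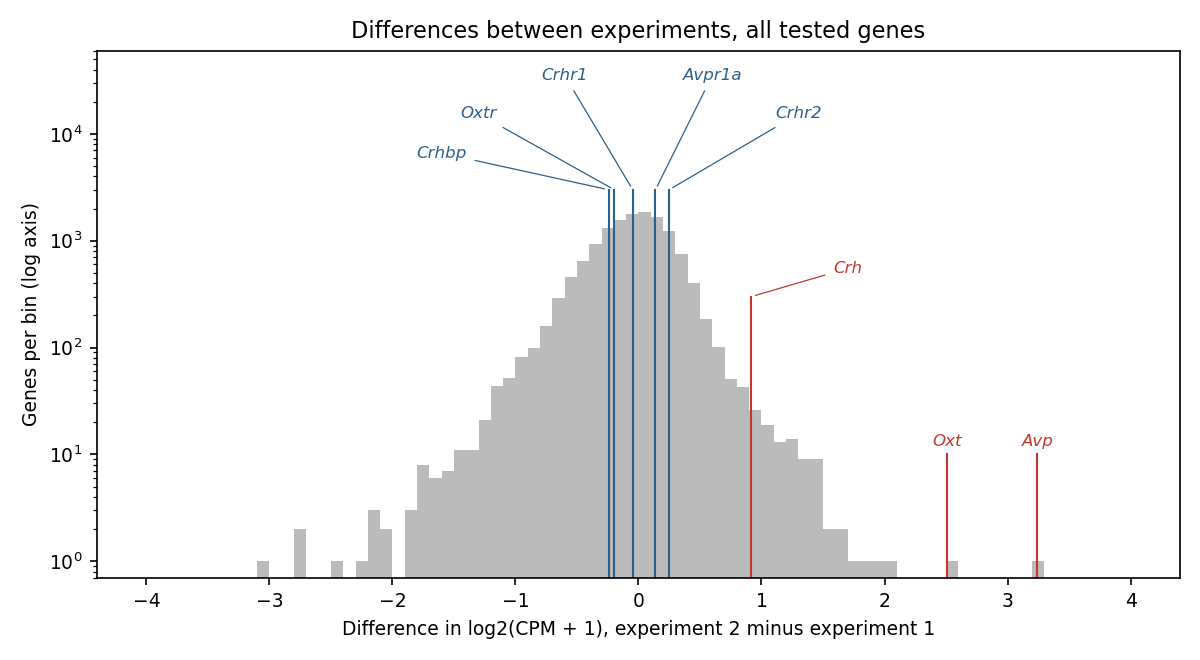
Histogram of the differences between experiments (experiment 2 minus experiment 1, log2(CPM + 1)) of all 13912 tested genes, with the number of genes per bin on a log axis and vertical lines at the 8 genes (red, past the threshold; blue, not). Avp at 3.24 and Oxt at 2.51 lie at the far right edge and Crh at 0.92 on the right flank, while the receptor genes and Crhbp lie between -0.24 and 0.25.

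Levels of different genes were compared as CPM per kilobase of merged exons over the 4 libraries (mean ± SD, n = 4). The order was Oxt at 122 ± 104, Avp at 76.4 ± 80.2, Crh at 16.5 ± 6.57, Crhbp at 7.35 ± 1.01, Crhr1 at 3.63 ± 0.334, Avpr1a at 3.15 ± 0.406, Crhr2 at 2.81 ± 0.779 and Oxtr at 2.48 ± 0.218. The ranges of neighbours in this order overlapped for Oxt and Avp, for Avp and Crh, and for all neighbours among the 4 receptor genes. They did not overlap between Crh and Crhbp or between Crhbp and Crhr1. The place of Crhr2 depended on the length used: its merged exons cover 5115 bases and its longest protein-coding transcript 2695, and per kilobase of the latter it stood at 5.33 ± 1.48, the highest of the receptor genes.

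The 3 tested genes outside the 8 with the most similar profile over the 4 libraries were named for each gene that spanned at least 0.5 on the log2(CPM + 1) scale, by the Euclidean distance between values centred on each gene's mean. For Crh these were Slc29a4 (distance 0.09), Ltc4s (0.09) and Sparc (0.10), and for Crhr2 they were Hyal3 (0.10), Slc38a6 (0.11) and Stk36 (0.12). For Oxt the nearest were Shox2 (0.67), Tnnt1 (0.71) and Gnmt (0.98), and for Avp Shox2 (1.19), Tnnt1 (1.35) and Ttr (1.67). Shox2, a homeobox transcription factor gene of the thalamus, stood at 4.51 and 40.4 CPM in the TCRb-/- libraries of experiments 1 and 2 and at 7.21 and 18.2 CPM in the WT ones. Oxt and Avp themselves were 0.81 apart, so Oxt was nearer to Avp than any of these, and Avp nearer to Oxt than Gnmt. Each profile has only 4 points, and the libraries share tissue make-up and depth.

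The genes that process the peptides and carry the receptor signals were followed in 6 lists with 66 genes, of which 61 were listed and 59 tested. By genotype, 0 of 59 were called, with or without the replicate block, where the lowest adjusted p was 0.848 in limma. By experiment 6 rose, 17 fell and 36 did not pass, so 39.0% were called against 23.7% of all genes. The replicate block added calls of Magel2 (higher) and of Prkacb and Creb1 (lower), with adjusted p of 0.0492, 0.0318 and 0.0303 in limma. Ucn3, given above, was 1 of the 6 that rose.

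Peptide processing and release had 16 genes, of which 2 rose, 3 fell and 11 did not pass, with a median difference between experiments of 0.14. Pcsk1n, which encodes the proSAAS inhibitor of prohormone convertase 1, rose by 0.54 (adjusted p 0.00598 in limma), and Cd38, needed for oxytocin release, by 0.48 (0.0415). Pcsk2, a prohormone convertase, had a difference of -0.47 (0.00752), Mme, the peptidase neprilysin, of -1.20 (0.00860) and Chgb, a granin of secretory vesicles, of -0.25 (0.0392). By genotype the list ran from -0.40 for Magel2 and -0.23 for Cadps to 0.14 for Cpe and 0.24 for Pcsk1, none of them called.

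The Gs and cyclic AMP path of the CRH receptors had 18 genes, of which 1 rose, 6 fell and 11 did not pass (median -0.23). Gnas, the Gs alpha subunit, rose by 0.69 (adjusted p 0.00503 in limma). Among the genes that fell were the adenylyl cyclases Adcy1, with a difference of -1.03 (0.00253), and Adcy5, which is abundant in striatum, with -1.42 (0.00976), and the CREB coactivator Crtc1 with -0.46 (0.0117). The striatal marker sums given above fell in the same libraries, and their part in these falls was not tested. By genotype the extremes were -0.39 for Adcy5, -0.29 for Crtc3, 0.08 for Crtc2 and 0.15 for Adcy3, none called.

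In the Gq and phospholipase C path of the oxytocin and vasopressin receptors, 14 of 15 genes were tested, 1 rose, 5 fell and 8 did not pass (median -0.40). Plcb4, a phospholipase C beta, rose by 0.53 (adjusted p 0.0116 in limma). Itpr1, the inositol trisphosphate receptor, fell with a difference of -1.13 (0.00501), as did the kinase genes Prkcb (-0.71, 0.00851) and Camk2a (-0.68, 0.00749). Markers of striatum (14 of 15 called lower, median -1.37) and of cortex and hippocampus (6 of 8, median -1.18) fell in the same libraries, and their part in these falls was not tested. The genotype extremes were -0.44 for Camk4, -0.29 for Plcb1, 0.15 for Gna14 and 0.27 for Itpr2, none called.

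Receptor desensitisation had 8 genes, of which 1 rose, 2 fell and 5 did not pass (median -0.17). The beta-arrestin genes went opposite ways, Arrb2 by 0.45 (adjusted p 0.0230 in limma) and Arrb1 by -0.41 (0.00809), and the receptor kinase gene listed as Adrbk2 had -0.61 (0.0275). By genotype Arrb1 and Rgs2 were at -0.02 and -0.14, and Arrb2 and Adrbk2 at 0.19 and 0.20, none called. Of 4 transcription factor genes of the peptide neurons, 2 were tested: Arnt2, the partner of Sim1, fell with -0.52 (0.00598) and Pou3f2 had -0.11 (0.690). Arnt2 therefore went opposite to the read counts of Sim1 and Otp and to Oxt, Avp and Crh.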

How the data were processed

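RNA of 4 pooled septal libraries, taken from cleared lysate, was sequenced on an Illumina HiSeq2500 after SMARTer ultra-low-input preparation, per the labels' protocols. Per the submitters' processing notes, the tools were HISAT2 2.1.0, SAMtools 1.3, HTSeq 0.9.1, R 4.0.5 and limma 3.46.0 with build mm10; their settings, the strand setting and the treatment of reads that fit several genes were not given in the sources used here. The deposited log2 values proved to be log2 of CPM with 0.5 added to the reads and 1 to the library total. Whole reads were recovered for 100% of the values within 0.001 reads. Listed rows had at least 10 reads in the highest library and at least 0.447 CPM in the second-highest. Of 15426 rows, 17 spike-in rows were left out.

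Recovered reads were expressed as log2(CPM + 1), which understates differences of low genes, and genes averaging 1 CPM or more (13912) were fitted with limma 3.58.1 in R 4.3.3 (empirical Bayes with a trend, two-sided, Benjamini-Hochberg adjustment over all genes, threshold 0.05). Genotype or experiment was the only term. Per the labels, same-numbered libraries share an experiment and are therefore pairs (correlation of deviations across genes 0.72), and the replicate block was an alternative. Replicates differed beyond counting noise, with chi-square values over their degrees of freedom of 53.0 (TCRb-/-) and 30.7 (WT). Intervals are exact binomial (Clopper-Pearson) at 95% and, like floors, cover counting error only. Amplified reads are not independent molecules, so the intervals may be too narrow even for counting error. Other steps used Python 3.11.15 (pandas 2.3.3, matplotlib 3.10.9, scipy 1.17.1, numpy 2.4.6). The fits were tested on simulated counts. Those for genotype held no difference between experiments, so they do not show how the genotype fit behaves with one.

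The genes, the lists and the rule for named genes were chosen with earlier results of these data known. The rule named all 8 genes and the related ligands and receptors, Trbc2, in each other pathway list the 2 highest and 2 lowest genes by genotype and up to 4 past the threshold, marker genes where their list is described, and the 3 most similar genes of each widely ranging gene. Cd38 falls outside the rule and was chosen after its value was seen. Of 18 marker lists, those not described in the results, for other cell types, blood and sex, are given with the closing observations.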

Additional observations from a re-analysis of the deposited data

Results flagged for a closer look

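Oxt and Avp differed between TCRb-/- and WT in opposite directions in the experiments. For Oxt, TCRb-/- minus WT on the log2(CPM + 1) scale was -0.35 in experiment 1 and 0.42 in experiment 2. For Avp it was -0.60 in experiment 1 and 0.83 in experiment 2. Each experiment had 1 library per genotype, so the difference between experiments was not tested.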

How the results depend on the processing

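Of 188 values of the 8 genes under the alternative settings (offsets, filters, scalings, moderation, weights and the replicate block), 187 kept their direction and their side of the threshold. The exception was Crhr1 by experiment, 0.019 with quantile normalization, and the cause was not tested. Oxt, Avp and Crh by experiment passed the threshold under all 12 alternatives (adjusted p in limma up to 0.0444, 0.0444 and 0.0465) and in all 4 omissions of a library. The replicate block changed no call of the 8 genes; over all genes it gave 2 calls by genotype, as it did with voom weights, but 0 on the deposited log2 values, both pairings of choices added after seeing the data. Without the trend, 629 genes were called by experiment. Leaving out each library gave 0 to 47 calls by genotype, the most without TCRb-/- replicate 1, and 1406 to 3390 by experiment. The share of higher calls by experiment was 37.8%, and it was 50.6% with quantile normalization, 20.7% without the trend and 27.8% without TCRb-/- replicate 2.

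With each library left out in turn, differences by genotype ranged from -0.26 to 0.75 for Crh, 0.18 to 0.22 for Crhr1, 0.26 to 0.74 for Crhr2, -0.32 to 0.038 for Crhbp, -0.14 to 0.10 for Oxtr, 0.13 to 0.34 for Avpr1a, -1.41 to 1.48 for Oxt and -1.86 to 2.097 for Avp. By experiment they ranged from 0.75 to 1.08 for Crh, -0.15 to 0.054 for Crhr1, -0.12 to 0.61 for Crhr2, -0.37 to -0.11 for Crhbp, -0.23 to -0.17 for Oxtr, -0.015 to 0.29 for Avpr1a, 2.30 to 2.72 for Oxt and 2.83 to 3.66 for Avp. A lone library is there assumed to vary like the others. Crhr1 and Avpr1a have no value under the filter at 10 CPM, and the level of Crhr2 per kilobase of its longest coding transcript, an alternative added after seeing the data, was 5.33. With 175 to 401 reads per library, a receptor gene's CPM carries a counting error that covers ratios such as 1.17 for Crhr1.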

Other observations

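Summed CPM in TCRb-/- replicates 1 and 2 and WT replicates 1 and 2 was 2642, 2602, 2405 and 2421 for 7 astrocyte markers, and 10675, 8993, 9399 and 9551 for 7 oligodendrocyte markers. Microglial markers (6 genes) summed to 132, 130, 129 and 120 CPM, and cortical interneuron markers (7 of 8 listed) to 243, 228, 289 and 263 CPM. By experiment 1 astrocyte, 1 oligodendrocyte and 1 microglial gene fell, and among the interneuron markers 1 rose and 3 fell.

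Ependymal markers (5 genes) summed to 114, 131, 84.2 and 122 CPM, with 1 higher in experiment 2 and 3 called with the replicate block. Mural cell markers (8 listed, 6 tested) summed to 52.6, 19.0, 44.7 and 22.1 CPM, with 3 lower in experiment 2. Endothelial markers (5 of 6 listed) summed to 13.3, 12.2, 10.3 and 8.36 CPM and meningeal fibroblast markers (6 genes) to 20.7, 22.8, 24.3 and 18.0 CPM, with no gene called in either list. Of 8 T cell markers 3 were listed, and of 5 blood markers 1 was, at 2.20 to 3.74 CPM. Of 5 genes in the sex list, the 4 Y-linked genes were listed and summed to 98.0, 101, 115 and 105 CPM, and Xist was not listed. By genotype limma called no gene of these lists, and with the replicate block only Trbc2 among them.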
